A study of Mus musculus with 2 samples.

Results

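Transcription factors that build the nephron or hold its segments apart in the adult kidney were examined in kidneys of Iah1-KO and Iah1-WT mice. The list had 41 genes, chosen by name and with earlier results of these data known. Of these, 40 had a probe set annotated with the gene's symbol alone, out of 22180 such genes on the array. The list also held Ppp1r1b, which encodes the phosphatase inhibitor DARPP-32 and is no transcription factor; it was not analysed here. The label of the list holds for the other 40, which all encode transcription factors or, for Eya1, a transcriptional coactivator. Where a gene had several probe sets the brightest was used, which concerned 6 genes.

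Iah1-KO mice carry a systemic knockout of Iah1, whose product resembles an esterase that hydrolyses isoamyl acetate, and they were compared with Iah1-WT mice. The mice of both groups were males that were moved at the age of 6 weeks from standard chow to a high-fat diet, kept 1 to a cage on that diet for 12 weeks, and deprived of food for 4 hours before kidneys were taken in the early afternoon. Each genotype was 1 array with the pooled kidney RNA of 3 mice, so neither the spread between mice nor an error can be given, and no test between genotypes is possible. The sources used here give neither the making of the knockout allele nor the strain. Because both groups ate the high-fat diet, an effect of the diet itself cannot be seen.

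The deposited values are log2 expression values made with RMA, which brings the arrays to a common distribution before probes are summarised. Iah1 itself was at 3.60 in the Iah1-KO pool, against 9.09 in the Iah1-WT pool, and the median of all probe sets was 4.03 in the Iah1-KO pool and 4.05 in the Iah1-WT pool. All differences below are in log2 units and run Iah1-KO minus Iah1-WT, so a positive one means a higher value in the knockout. Each difference is set beside the local robust SD, the scatter of the differences of the 500 genes nearest in mean expression; it describes scatter over genes on these arrays and is not an error between mice. A difference of 1.5-fold (0.58 on the log2 scale) was used as the threshold for counts. The brightness of a probe set depends on its probes, so log2 values are compared between pools and not between genes.

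The mammalian nephron forms from mesenchymal progenitors, which are held in an undifferentiated state by factors such as Six2 and Sall1 and meet a branching ureteric bud that becomes the collecting duct. As progenitors become epithelium, other factors divide the tubule into segments: Irx genes and Pou3f3 act in the middle of the nephron, Tfap2b in the distal tubule, and Tfcp2l1, Gata and epithelial ETS factors in the collecting duct. In mice the progenitor pool is used up soon after birth, while several of the segment factors stay expressed in the adult tubule. The factors were sorted into progenitor and early nephron factors (8 genes), factors of podocytes, stroma and ureteric mesenchyme (7 genes), and adult tubule factors (25 genes). This sorting was made from general knowledge, and some factors, such as Sox9, Pax2, Wt1 and Sim1, could sit in other groups. The medians of the groups depend on it.

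Among the 40 factors, Sim1 was higher and Emx1 lower in the Iah1-KO pool by at least 1.5-fold, and the other 38 lay within that bound. Sim1 encodes a bHLH-PAS factor best known from the hypothalamus, and Emx1 a homeobox factor of the same family as the ureteric bud regulator Emx2. Over all genes, the share past this bound was 0.996% on the higher side and 1.42% on the lower side. With 1 factor of 40 on each side, the counts are too small to set apart from those shares. Counted against the scatter at their own brightness, 6 factors were higher by at least 2 local robust SDs (Sim1, Pou3f3, Pax2, Sall1, Tfap2b and Cux1), where 3.32% of all genes were, and 1 (Emx1) was lower, where 3.49% of all genes were. Without replicates, and with a list chosen when earlier results of these data were known, these counts describe the 2 pools.

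**Figure D1:**
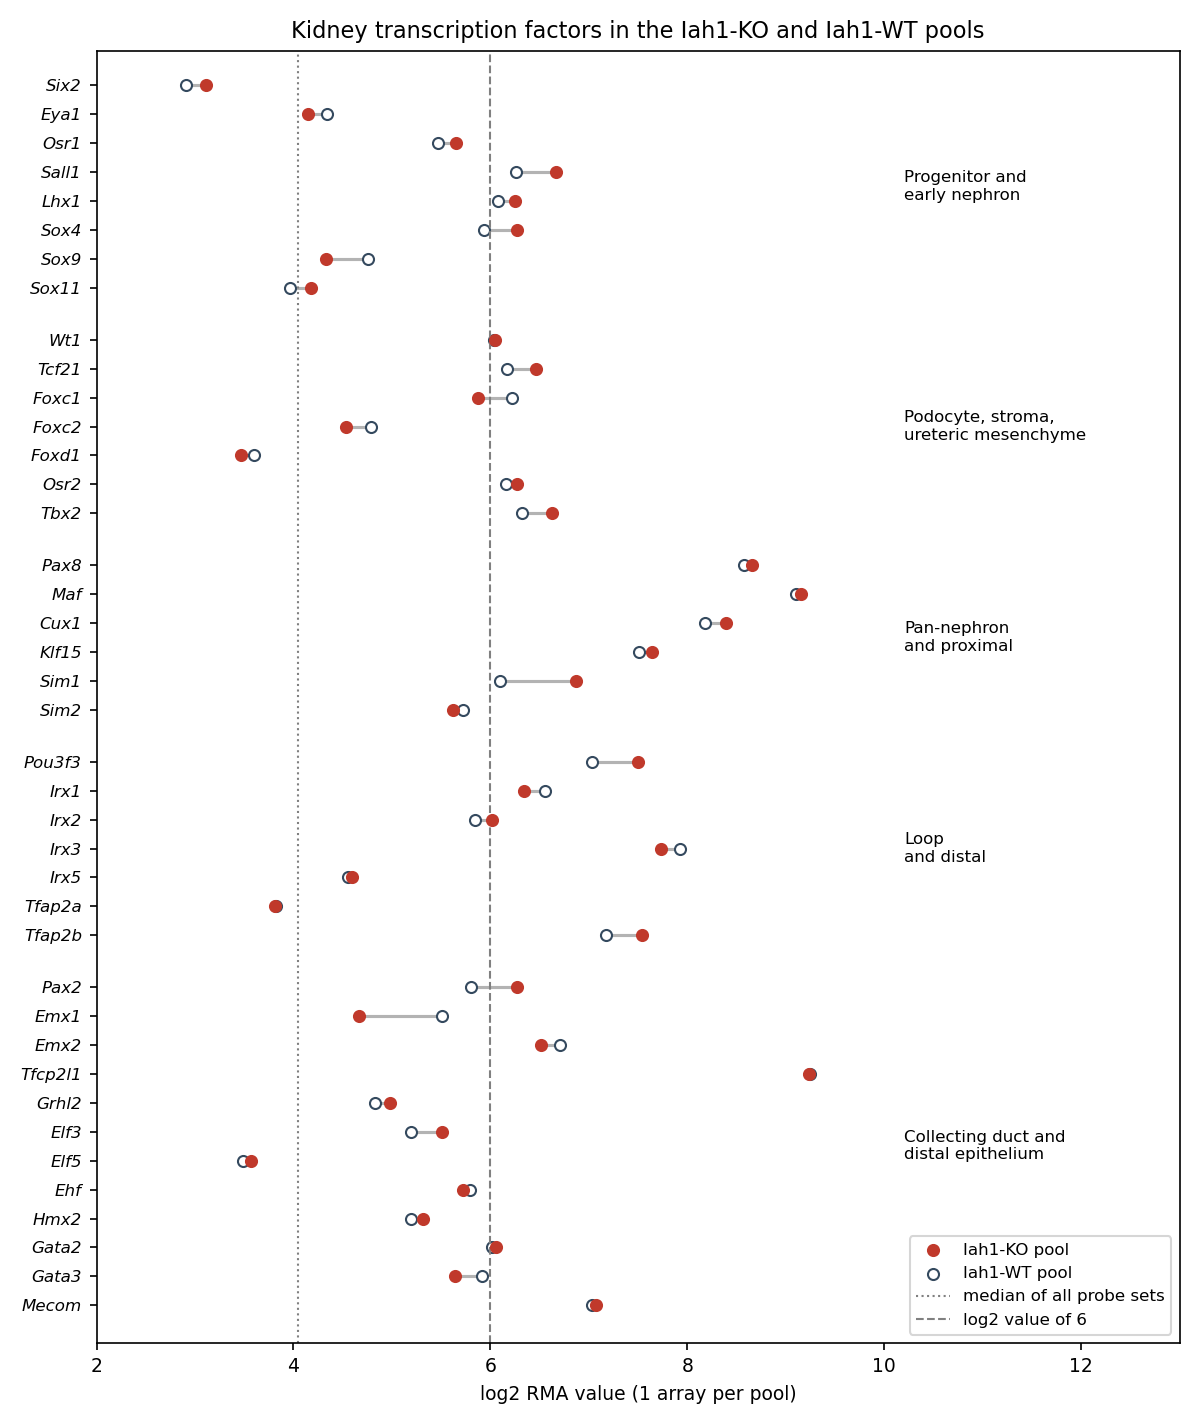
Log2 RMA values (x axis) of the 40 factors in the Iah1-KO pool (filled red) and the Iah1-WT pool (open), 1 array each, by role group; the dotted line is the median of all probe sets and the dashed line a value of 6. Sim1 (6.87 in the Iah1-KO pool and 6.09 in the Iah1-WT pool) and Emx1 (4.66 in the Iah1-KO pool and 5.51 in the Iah1-WT pool) have the widest gaps, and Tfcp2l1, at 9.24 in both pools, has nearly none.

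The promoters of Sim1 and Emx1 are shown because these were the factors past the threshold. Sequences are from RefSeq (GRCm38.p6), 250 bases before to 50 after the start of the gene, on the strand of the gene and 5′ to 3′. Sim1 is on the plus strand at chr10:50895401-50895700, and Emx1 on the plus strand at chr6:85187681-85187980. Capitals mark matches, on either strand, to the TATA box core TATAAA, the CAAT box letters CCAAT, the GC box GGGCGG or the E-box CACGTG.
Sim1: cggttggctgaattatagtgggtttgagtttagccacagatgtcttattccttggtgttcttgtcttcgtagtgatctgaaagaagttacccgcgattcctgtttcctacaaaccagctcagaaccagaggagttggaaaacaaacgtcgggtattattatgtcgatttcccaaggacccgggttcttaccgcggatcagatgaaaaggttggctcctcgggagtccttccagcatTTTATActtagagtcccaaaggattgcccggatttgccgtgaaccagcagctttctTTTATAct
Emx1: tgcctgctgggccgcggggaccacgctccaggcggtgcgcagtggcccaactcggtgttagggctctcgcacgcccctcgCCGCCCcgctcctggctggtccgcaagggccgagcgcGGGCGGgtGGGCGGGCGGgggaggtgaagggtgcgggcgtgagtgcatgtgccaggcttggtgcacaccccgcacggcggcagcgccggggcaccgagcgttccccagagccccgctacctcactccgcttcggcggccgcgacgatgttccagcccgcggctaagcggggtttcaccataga

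The Sim1 window had 46.0% G and C, 13 CpG dinucleotides and 2 matches to TATAAA, both read on the opposite strand and written TTTATA above. The Emx1 window had 74.0% G and C, 37 CpG dinucleotides and 4 matches to GGGCGG, of which 1 is on the opposite strand and 2 overlap each other. Over 32851 RefSeq promoter windows of this length, 13.6% held TATAAA, 35.7% held GGGCGG, 37.4% held CCAAT and 7.15% held CACGTG. A promoter entry was found for 27 of the 40 factors, with 36 windows. In these windows the median G and C content was 60.8% against 52.7% over all windows, and the median number of CpG dinucleotides was 20 against 7. GGGCGG was found for 17 of the 27 genes, CCAAT for 16, TATAAA for 3 and CACGTG for 1. Genes with several windows count once if any window holds the motif, which raises their share. The matches describe the letters in these windows and nothing was measured there.

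Progenitor and early nephron factors were mostly slightly higher in the Iah1-KO pool, with 6 of 8 above 0, where 49.3% of all genes were. Their median difference was 0.19, beside -0.00 over all genes. None passed 1.5-fold. Sall1, a zinc finger repressor needed for the progenitor pool, was at 6.67 in the Iah1-KO pool and at 6.26 in the Iah1-WT pool. The difference of 0.41, a 1.33-fold higher value, was 2.66 local robust SDs and the only one of the group past 2. Sox4, a SoxC factor of the early nephron, was at 6.27 in the Iah1-KO pool and at 5.93 in the Iah1-WT pool, a difference of 0.34 or 1.83 local SDs. Its dimmer probe set differed by 0.21, at 3.13 in the Iah1-KO pool and 2.92 in the Iah1-WT pool. Both probe sets of Sox4 were thus higher in the Iah1-KO pool, the second of them below the median of the array. Sox11, the other SoxC member here, was at 4.18 in the Iah1-KO pool, against 3.96 in the Iah1-WT pool.

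The remaining progenitor factors lay nearer the scatter or were dim. Lhx1, a LIM homeobox factor that patterns the early nephron, was at 6.25 in the Iah1-KO pool and at 6.08 in the Iah1-WT pool. Osr1, among the earliest markers of the intermediate mesoderm from which kidneys form, was at 5.65 in the Iah1-KO pool and at 5.47 in the Iah1-WT pool. Six2, which keeps progenitors from differentiating, was at 3.12 in the Iah1-KO pool and 2.91 in the Iah1-WT pool. Both Six2 values were under the median of all probe sets and are not shown to be above background. Eya1, the coactivator partner of Six2, was at 4.15 in the Iah1-KO pool and at 4.34 in the Iah1-WT pool, a difference of -0.19. Sox9, a factor of the ureteric tips that injured tubule cells switch on again, had the lowest difference of the group, -0.43, at 4.34 in the Iah1-KO pool and 4.76 in the Iah1-WT pool. This was -1.77 local SDs. Sox9 and Eya1 were the 2 genes of the group below 0.

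Factors of podocytes, stroma and ureteric mesenchyme differed in both directions, with 4 of 7 above 0 and a median difference of 0.02, which is 0.11 with a floor of log2 5 or 6 on the higher pool. No member passed 1.5-fold, and none passed 2 local SDs as deposited, while Foxc1 did after a loess correction. Wt1, the zinc finger regulator of progenitors and podocytes, was nearly the same in both pools, at 6.05 in the Iah1-KO pool and at 6.03 in the Iah1-WT pool. Tcf21, a bHLH factor of podocytes and stroma, was at 6.46 in the Iah1-KO pool and at 6.17 in the Iah1-WT pool, a difference of 0.29. Tbx2, which with Tbx3 acts in the mesenchyme of the ureter, was furthest higher, at 6.63 in the Iah1-KO pool and at 6.32 in the Iah1-WT pool. Its difference of 0.30 was 1.96 local SDs, just inside the bound of 2. Osr2, the paralog of Osr1, differed by 0.11.

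The 3 forkhead genes of this group were all lower in the Iah1-KO pool. Foxc1 was furthest lower, at 5.87 in the Iah1-KO pool and at 6.22 in the Iah1-WT pool, a difference of -0.35 or -1.90 local SDs, and of -0.37 after the loess correction. Its paralog Foxc2, which acts with it in podocytes, was at 4.53 in the Iah1-KO pool and 4.78 in the Iah1-WT pool. Foxd1, a marker of stromal progenitors, was at 3.46 in the Iah1-KO pool and 3.59 in the Iah1-WT pool, both below the median of all probe sets. Podocyte genes downstream of such factors had no member past 1.5-fold or 2 local SDs: of 8 measured, 5 were above 0 and 3 below, with a median of 0.08. The furthest were Nphs1, which encodes nephrin of the slit diaphragm, at 0.31, the adaptor Cd2ap at 0.20, the phosphatase Ptpro at 0.18 and Synpo, which encodes the actin-binding protein synaptopodin, at -0.15.

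Pan-nephron and proximal tubule factors lay close between the pools, with Sim1 apart. Of 6 genes, 5 were above 0, where 49.3% of all genes were, and the median difference was 0.11. Sim1 was at 6.87 in the Iah1-KO pool and at 6.09 in the Iah1-WT pool, a 1.72-fold higher value. The difference of 0.78 was 5.06 local robust SDs and ranked 56 of the 22180 genes, counted from the highest. It was the only one of the 40 factors past 4 local SDs. In zebrafish the ortholog sim1a patterns the straight segment of the proximal tubule. Its paralog Sim2 did not share the difference: it was at 5.62 in the Iah1-KO pool and at 5.72 in the Iah1-WT pool, a difference of -0.10.

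Other factors of this group are bright on the array and scattered little. Pax8, a paired-box factor kept along the adult tubule, was at 8.66 in the Iah1-KO pool and at 8.57 in the Iah1-WT pool. Maf, a bZIP factor of the proximal tubule, was at 9.15 in the Iah1-KO pool and at 9.11 in the Iah1-WT pool. Klf15, a zinc finger factor induced by glucocorticoids, was at 7.64 in the Iah1-KO pool and at 7.51 in the Iah1-WT pool. These 3 were each about 1 local SD or less from 0. Cux1, a cut homeobox factor that represses inhibitors of the cell cycle, was at 8.39 in the Iah1-KO pool and at 8.18 in the Iah1-WT pool. The difference was small, 0.21, but 2.08 local SDs at this brightness. A dimmer probe set of Cux1 went the other way, at 2.60 in the Iah1-KO pool and 2.98 in the Iah1-WT pool, both under the array median, and averaged over both probe sets Cux1 differed by -0.08.

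The proximal tubule markers, which label the bulk of the kidney cortex, differed by less than Sim1. All 12 were measured, 7 above and 5 below 0, with a median of 0.02 and a range of -0.20 to 0.23 (Gatm and Slc22a8). At their brightness these 2 were past 2 local SDs, Slc22a8 at 2.35 and Gatm at -2.05. Over all genes, 3.32% were higher and 3.49% lower by at least 2. In whole kidney, fewer cells of a type and less RNA per cell cannot be told apart.

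Loop and distal tubule factors held 2 genes past 2 local SDs, both higher in the Iah1-KO pool. Over all genes, 3.32% were higher by that much. Pou3f3, also called Brn1, is a POU factor needed for the loop of Henle. It was at 7.50 in the Iah1-KO pool and at 7.03 in the Iah1-WT pool, a difference of 0.47, which is 1.38-fold or 3.52 local SDs. Tfap2b, an AP-2 factor of the distal tubule, was at 7.53 in the Iah1-KO pool and at 7.17 in the Iah1-WT pool, a difference of 0.36 or 2.51 local SDs. Its paralog Tfap2a was at 3.82 in both pools, below the median of all probe sets. The 7 genes of the group had a median of 0.03, with 4 above and 3 below 0. With a floor of log2 5 or 6 on the higher pool the median of the 5 brighter ones was 0.18, the difference of Irx2. Irx2 reached 6 in the Iah1-KO pool alone, and with a mean of the arrays of at least log2 6 the median was 0.08.

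The 4 Irx genes, homeobox factors of the middle nephron, were split within each gene cluster. Irx1 and Irx2 lie on chromosome 13: Irx1 was at 6.34 in the Iah1-KO pool and at 6.55 in the Iah1-WT pool, and Irx2 was at 6.02 in the Iah1-KO pool and at 5.84 in the Iah1-WT pool. Irx3 and Irx5 lie on chromosome 8: Irx3 was at 7.73 in the Iah1-KO pool and at 7.93 in the Iah1-WT pool, and Irx5 was at 4.59 in the Iah1-KO pool and 4.56 in the Iah1-WT pool. The differences were -0.21 for Irx1, 0.18 for Irx2, -0.20 for Irx3 and 0.03 for Irx5, none past 2 local SDs. The dimmer probe set of Irx3 also lay below 0, at -0.13.

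Markers of the loop of Henle and the distal convoluted tubule differed less than Pou3f3 and Tfap2b. Of 6 loop of Henle markers 2 were above and 4 below 0, with a median of -0.08. The loop cotransporter gene Slc12a1 differed by -0.12 and the claudin gene Cldn10 by -0.24. The latter was -2.37 local SDs, where 3.49% of all genes were lower by at least 2. Of 6 distal convoluted tubule markers 4 were above and 2 below 0, with a median of 0.07, and the furthest was the calcium-binding protein gene Pvalb at -0.33.

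**Figure D2:**
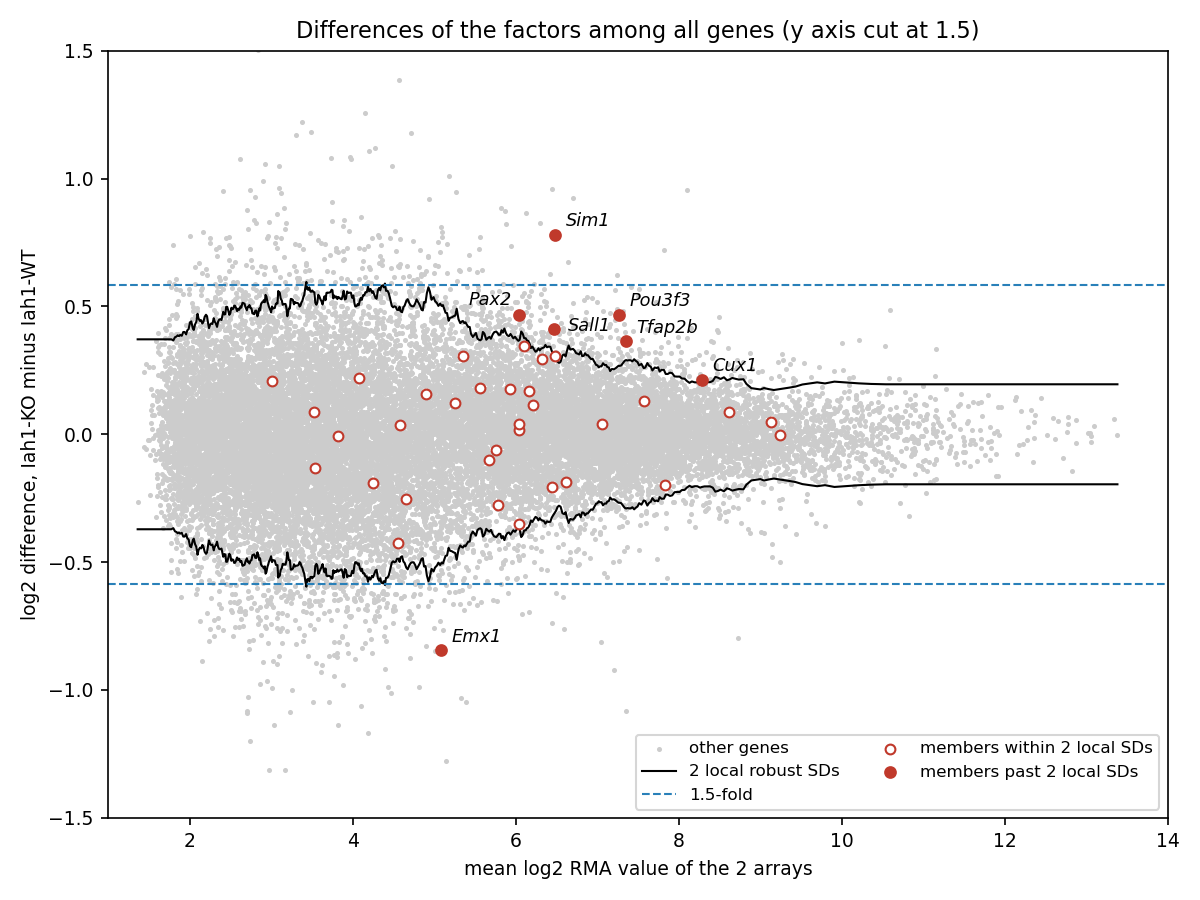
Difference in log2 value, Iah1-KO minus Iah1-WT (y axis), against the mean log2 value of the 2 arrays (x axis) for all 22180 genes (grey, 5 of them beyond the y axis) and the 40 factors (red, filled where past 2 local robust SDs, the black lines). Sim1 lies above and Emx1 below the dashed lines of 1.5-fold, and Pou3f3, Pax2, Sall1, Tfap2b and Cux1 lie between the black and the dashed lines on the upper side.

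Collecting duct and distal epithelial factors held both the factor furthest lower and one of those furthest higher. Emx1 was at 4.66 in the Iah1-KO pool and at 5.51 in the Iah1-WT pool, a 1.80-fold lower value. The difference of -0.84 was -3.30 local SDs and ranked 49 of the 22180 genes, counted from the lowest. Both values of Emx1 are below 6, where genes scatter more, with a local robust SD of 0.26. Emx2, which the ureteric bud needs to induce nephrons, was at 6.52 in the Iah1-KO pool and at 6.70 in the Iah1-WT pool, a difference of -0.19 or -1.24 local SDs. Pax2, a paired-box factor of the ureteric bud and the early nephron that stays on in collecting duct cells, was at 6.27 in the Iah1-KO pool and at 5.80 in the Iah1-WT pool. Its difference of 0.47, 1.38-fold, was 2.55 local SDs, and that of its relative Pax8 was 0.09.

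The other collecting duct factors did not pass 2 local SDs. Tfcp2l1, a grainyhead-family factor of intercalated and principal cells, was at 9.24 in both pools, with a difference of -0.00. Mecom, a zinc finger factor, was at 7.07 in the Iah1-KO pool and at 7.03 in the Iah1-WT pool. Gata2, which acts on the water channel gene Aqp2, was at 6.06 in the Iah1-KO pool and at 6.02 in the Iah1-WT pool. Gata3, a regulator of the ureteric bud, was at 5.64 in the Iah1-KO pool and at 5.91 in the Iah1-WT pool, a difference of -0.28. Its dimmer probe set differed by -0.01, so the probe sets of Gata3 do not give the same size. The dimmer probe set of Mecom, at 3.37 in the Iah1-KO pool and 3.62 in the Iah1-WT pool, had the opposite sign to the brighter one.

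The epithelial ETS factors, Grhl2 and Hmx2 were dim. Elf3 was furthest higher among these, at 5.50 in the Iah1-KO pool and at 5.20 in the Iah1-WT pool, a difference of 0.31 or 1.39 local SDs. Grhl2, which maintains epithelial junction genes, was at 4.98 in the Iah1-KO pool and 4.82 in the Iah1-WT pool. Ehf was at 5.73 in the Iah1-KO pool and 5.79 in the Iah1-WT pool. Elf5, in mouse kidney a factor of principal cells, was at 3.57 in the Iah1-KO pool and 3.48 in the Iah1-WT pool, both below the median of all probe sets. Hmx2, a homeobox factor known from the inner ear, was at 5.32 in the Iah1-KO pool and at 5.19 in the Iah1-WT pool. Of the 12 collecting duct factors 7 were above and 5 below 0, with a median of 0.04.

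Genes that the collecting duct and epithelial factors are known to act on, or that mark their cells, gave 15 measured members, of which 2 were higher by at least 2 local SDs, where 3.32% of all genes were, and none was past 1.5-fold. Aqp2, the vasopressin-regulated water channel, was at 6.68 in the Iah1-KO pool and at 6.20 in the Iah1-WT pool, and Cldn4, a tight junction claudin, was at 5.77 in the Iah1-KO pool and at 5.36 in the Iah1-WT pool. Slc4a1, the anion exchanger of intercalated cells, differed by 0.18 and Calb1, a calcium-binding protein, by -0.14. The median of the 15 was 0.02. Principal cell markers, which share Aqp2, Avpr2 and Hsd11b2 with that list, had 4 of 8 above 0 and a median of 0.06. Aqp4 was furthest at 0.57 or 4.40 local SDs. Intercalated cell markers, which share Slc4a1, Atp6v1b1 and Atp6v0d2 with the same list, had 2 of 8 above 0 and a median of -0.09. The proton pump subunit gene Atp6v1g3 was furthest at -0.81 or -6.17 local SDs. It was lower by at least 1.5-fold, where 1.42% of all genes were. Foxi1, the master regulator of intercalated cells, was at 7.64 in the Iah1-KO pool and at 7.81 in the Iah1-WT pool.

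Factors sorted as adult tubule factors were then set beside the progenitor factors. The 25 adult tubule factors had a median difference of 0.05, with 16 above and 9 below 0, and the 8 progenitor factors a median of 0.19, with 6 above and 2 below 0. The ranges overlapped widely, from -0.84 to 0.78 for the adult tubule factors and from -0.43 to 0.41 for the progenitor factors. Of the 25 adult tubule factors, 5 were higher and 1 was lower by at least 2 local SDs. The 5 higher ones include Cux1, which differed by -0.08 with its probe sets averaged. Of the 8 progenitor factors, 1 (Sall1) was higher by at least 2 local SDs. Over all genes, 3.32% were higher and 3.49% lower by that much. Both genes past 1.5-fold, Sim1 and Emx1, were placed among the adult tubule factors by the sorting used here. Over all genes that share was 0.996% on the higher side and 1.42% on the lower side. The gap depends on the summary: the means were 0.07 for adult tubule and 0.11 for progenitor factors. The medians of members with a higher value of at least 6 were 0.09 and 0.34, the second over 3 genes. That 0.34 is the difference of Sox4, which reached 6 in the Iah1-KO pool alone, as Pax2 and Irx2 did among the adult tubule factors. This filter is therefore not independent of the differences. With 1 array a genotype, the difference between these groups was not tested. Over all 40 factors, 26 were above 0, where 49.3% of all genes were, and the median was 0.09.

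Factors of both kinds were also counted by brightness, without detection calls. A value of at least 6 in the higher pool was seen for 15 of 25 adult tubule factors and for 3 of 8 progenitor factors (Sall1, Lhx1 and Sox4), beside 34.6% of all genes. The progenitor count is near that share, and Sox4 reached 6 in the Iah1-KO pool alone. With at least 6 in both pools the counts were 13 and 2, beside 7239 of 22180 genes. A value of at least 8 was seen for 4 of 25 adult tubule factors (Pax8, Maf, Cux1 and Tfcp2l1) and 0 of 8 progenitor factors. Among all genes, 2477 of 22180 had such a value. In both pools, 4 of the 40 factors were under the median of all probe sets: Six2, Foxd1, Tfap2a and Elf5. Among all genes, 8684 of 22180 were. These counts depend on each gene's probes as well as on its RNA, and were not tested.

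**Figure D3:**
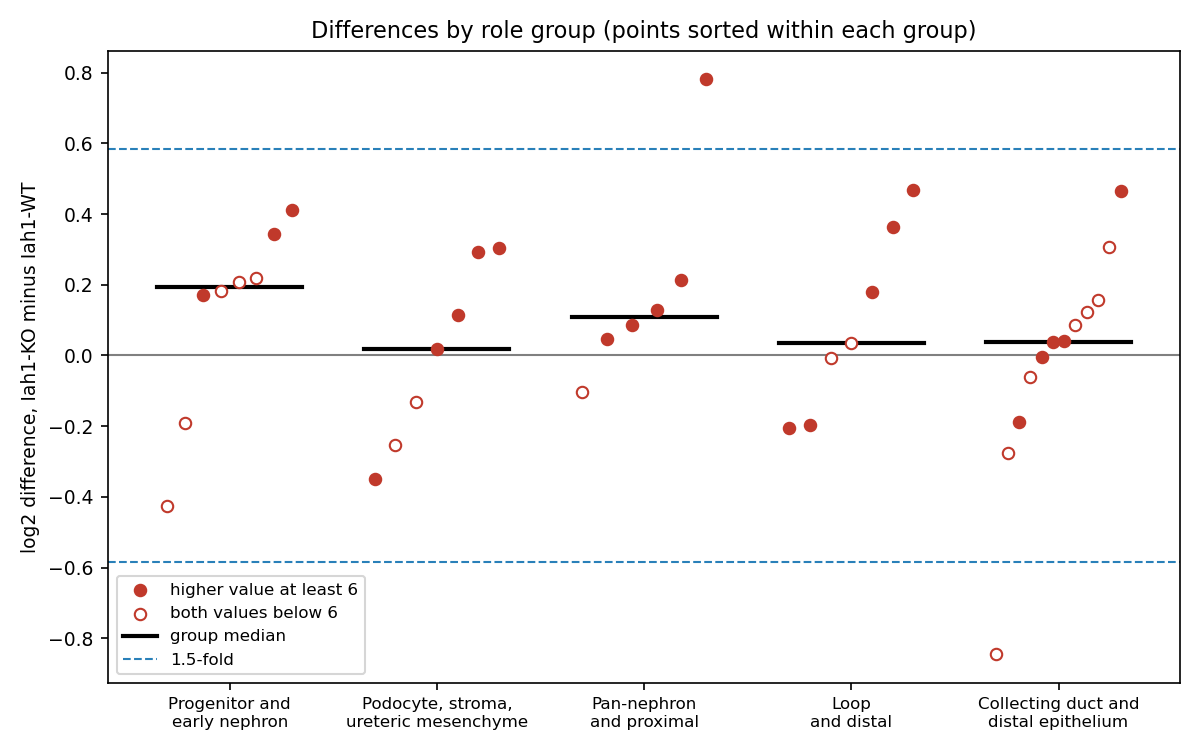
Difference in log2 value, Iah1-KO minus Iah1-WT (y axis), of each factor by role group, sorted within the group; filled points have a value of at least 6 in the higher pool, open points are dimmer, and black bars are group medians. The median is 0.19 for progenitor and early nephron factors and lies between 0.02 and 0.11 for the other groups, and every group has points on both sides of 0.

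Paralogs gave both like and unlike values. Emx1 and Emx2, and Foxc1 and Foxc2, were both lower in the Iah1-KO pool, while Pax2 and Pax8, Osr1 and Osr2, and Sox4 and Sox11 were both higher. Sim1 and Sim2, Gata2 and Gata3, and Irx1 and Irx2 lay on opposite sides of 0. In each pair 1 gene or both lay within 2 local SDs, so these signs rest on differences within the scatter.

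Other nephron transcription factors, taken from a list that excluded the 40, were not shifted one way. Of 25 measured, 14 were above and 11 below 0, with a median of 0.02. Past 1.5-fold was 1 gene, on the lower side, where 1.42% of all genes were. That gene, Prdm16, a zinc finger factor related to Mecom, was at 4.64 in the Iah1-KO pool and at 5.29 in the Iah1-WT pool, a difference of -0.65 or -2.45 local SDs. Ovol2, an epithelial zinc finger factor, differed by 0.46, Dmrt2, of the doublesex-related family, by -0.37 and the teashirt gene Tshz3 by -0.34.

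Signalling genes of nephron progenitors and the ureteric bud had 10 of 20 above 0 and 10 below, a median of 0.01, and no member past 1.5-fold or 2 local SDs. The furthest were the Notch target Hey1 at -0.29, the receptor tyrosine kinase antagonist Spry1 at -0.27, the GDNF receptor gene Ret at 0.27 and the growth factor gene Fgf20 at -0.25.

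Markers of other cells were checked for the tissue and for carried-over tissue. All 12 proximal tubule markers were above 10 in both pools, and the brightest of 4 podocyte markers, Podxl, was at 7.96 in the Iah1-KO pool and at 7.86 in the Iah1-WT pool. Endothelial markers had a median of 0.11 over 8 genes, 7 of them above 0, where 49.3% of all genes were. Fibroblast and mural markers had a median of -0.02 over 6. Macrophage markers went both ways, with Lyz2 at 0.63 and Adgre1 at -0.73 among 7 genes. Both were past 1.5-fold, where 0.996% of all genes were higher and 1.42% lower. Lymphocyte markers were under the median of all probe sets in both pools for 5 of 5 genes and adrenal markers for 5 of 6. Urothelial markers did so for 1 of 5 (Trp63) and their highest value was 5.45, of Upk3a in the Iah1-KO pool. Of 6 adipocyte markers 5 were lower in the Iah1-KO pool. Lep at -0.65 and Cidec at -0.64 were lower by at least 1.5-fold, where 1.42% of all genes were. The part of these cells in the differences of Sim1, Pou3f3, Pax2 and Emx1 was not tested.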

How the data were processed

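Kidney RNA was measured on 2 Affymetrix arrays, 1 per genotype. The authors deposited log2 values per probe set. Per the submitters' processing notes these come from RMA, run in Affymetrix Expression Console 1.3.0. RMA subtracts background, quantile-normalizes the arrays and summarises probes, which hides any shift of most genes and compresses the differences of dim ones. Detection calls were not used here. The genome build of the array is not given.

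Of 41345 probe sets, 23521 had 1 gene symbol in GEO's platform annotation, 1814 several and 16010 none. Those with 1 symbol covered 22180 genes, and the brightest probe set over both arrays was taken. Probe sets with several symbols, 3 of which named a listed factor, were left out. All 40 factors had an Entrez number in the RefSeq table of GRCm38.p6. No floor was applied, and 6 marks bright values in some counts. The local robust SD is 1.4826 times the median absolute deviation over 500 genes; its calculation was tested on simulated data. Alternatives were the mean over probe sets, centring, a loess correction (span 0.3), thresholds of 2-fold or 4 local SDs, other floors and the mean over members.

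The factors, their role groups, the other lists and the naming rule were chosen with earlier results of these data known. All factors are named; of the other lists up to 4 genes with the largest differences are, together with Foxi1, Slc12a1 and list members at the edge of a range, chosen after their values were seen. Only 2 arrays limit the precision. Python 3.11.15, numpy 2.4.6, pandas 2.3.3 and statsmodels 0.14.6 were used.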

Additional observations from a re-analysis of the deposited data

How the results depend on the processing

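The 40 differences kept their size within 1 local robust SD under centring and loess, and under the mean over probe sets except for Cux1 (-0.08) and Mecom (-0.11), which changed sign. Under loess Wt1 and Tfap2a, both near 0, changed sign. The count at least 1.5-fold higher (1, Sim1) was 0 at 2-fold; the count lower (1, Emx1) was 0 at 2-fold, at 4 local SDs and with a floor of log2 6, since Emx1 is dimmer than that. The count lower by 2 local SDs (1) was 2 under loess, which added Foxc1, and 0 with that floor; the count higher (6) was 5 with the mean over probe sets.

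A floor of log2 6 moved the median of all 40 factors to 0.13, that of progenitor factors to 0.34 and that of loop and distal factors to 0.18. With this floor the median was 0.09 for adult tubule factors and 0.11 for podocyte, stroma and ureteric mesenchyme factors. Neither of these was called a move. A floor of log2 5 gave 0.26 and 0.18 for the progenitor and the loop and distal factors. A mean of the arrays of at least log2 6 gave 0.34 for progenitor and 0.08 for loop and distal factors. These floors leave few genes (3 of 8 progenitor factors at log2 6), and genes that enter through their higher value favour large differences. The mean in place of the median gave 0.11 for progenitor, 0.07 for all adult tubule, 0.19 for pan-nephron and proximal and -0.013 for collecting duct factors, the last with Emx1 in it. A move was called when it exceeded the robust SD of the members' differences over the square root of their number.

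At log2 7 in place of 6, 9 factors remained, all adult tubule factors: 0 progenitor, 0 podocyte and stroma, 3 loop and distal and 2 collecting duct factors reached it. At log2 5, 10 collecting duct factors did. No paired analysis was possible because each genotype has 1 array, and no replicate could be left out.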
